A study of Mus musculus with 16 samples.

Results

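Spleen leukaemia cells taken after 7 days of doxycycline were compared with spleen leukaemia cells from mice on control water, 3 libraries against 3, which are 6 of the 16 libraries of the series. Members were chosen by the tissue and treatment in the sample labels. All cells were mouse leukaemia cells that expressed CBFB::MYH11 and GFP, were transplanted into congenic recipients and were sorted for GFP at harvest. The doxycycline group carried a doxycycline-inducible short hairpin RNA against MYH11 and received the drug at 3 mg/ml in drinking water with 5% sucrose, while the spleen control group received 5% sucrose water. For the control libraries the labels give only fusion-expressing primary cells, while the design describes transduction before both treatments. No group received doxycycline without the hairpin, so effects of the drug itself and of the knockdown cannot be told apart. The number of donor leukaemias behind the cells is not stated. Titles number the replicates but do not say whether mice were pooled or sampled more than once, and the tests use the spread over these 6 libraries, which may be technical.

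CBFB is the partner subunit that strengthens the binding of RUNX transcription factors to DNA, and MYH11 is a heavy chain of smooth muscle myosin. The inversion of chromosome 16 found in a class of acute myeloid leukaemia joins these genes, and the fusion protein holds RUNX1 in altered complexes and blocks the maturation of blood progenitors. RUNX1, GATA factors and ETS factors together set the choice between stem, erythroid, megakaryocytic and granulocytic programmes, and spleen is a common site of leukaemic growth in mice.

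The mouse Myh11 gene had 6, 0 and 3 counts in doxycycline libraries 1, 2 and 3, against 8, 2 and 9 counts in spleen control libraries 1, 2 and 3. These few reads do not measure the fusion transcript, whose MYH11 part was not analysed here, so the knockdown was not checked at its target. Cbfb, whose reads can come from the normal allele and from the fusion, had 116, 53.6 and 118 CPM (the count per mega-count of its library after TMM scaling) in doxycycline libraries and 143, 122 and 129 CPM in spleen control libraries. Cbfb was lowest in doxycycline library 2, the groups did not overlap, and its log2 fold change of -0.46 ± 0.31 (SE) had an adjusted p of 0.658 in edgeR's quasi-likelihood test. Kit, the stem cell factor receptor of blood progenitors, and Gata2, a progenitor and mast cell factor, were expressed in all 6 libraries, while Cd34 had at most 0.0486 CPM.

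The 3 doxycycline libraries differed far more from one another than the 3 spleen control libraries did. Over 13062 genes tested, the median range of log2 CPM was 0.836 within the doxycycline group and 0.188 within the spleen control group. Of 9078 genes with a mean of at least 8 CPM, 820 (9.03%) ranged over 2 or more on the log2 scale in spleen doxycycline libraries and 4 (0.0441%) in spleen control libraries. The same count was 12 (0.132%) in bone marrow doxycycline libraries and 17 (0.187%) in bone marrow control libraries, 3 libraries each. Doxycycline library 1 had 433 genes at least 2-fold above and 711 at least 2-fold below the mean of the spleen controls. Doxycycline library 2 had 1208 above and 2104 below, and doxycycline library 3 had 815 above and 1040 below. Library 1 therefore stood nearest to the spleen controls, with library 3 between and library 2 farthest. Depth ran from 23122657 to 31201883 counts in doxycycline libraries and from 21838936 to 39419370 counts in spleen control libraries.

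**Figure D1:**
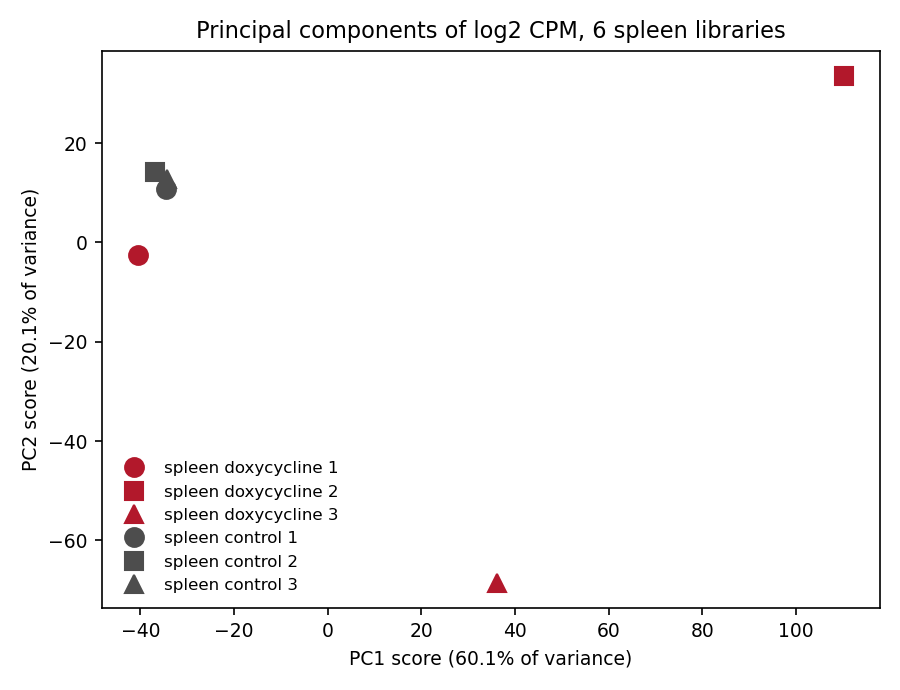
Principal component scores of the 6 spleen libraries from log2 CPM, with red points for the 3 doxycycline libraries, grey points for the 3 spleen control libraries and shapes for the replicate number. PC1 holds 60.1% and PC2 20.1% of the variance; doxycycline library 1 lies at -40.6 on PC1 beside the spleen controls at -36.9 to -34.3, while doxycycline library 2 lies at 110.3 and library 3 at 36.1 on PC1 and -68.5 on PC2.

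With these 6 libraries in the model, 1 gene of 13062 passed an adjusted p of 0.05, which is 0.00766% of the genes tested, and 1307 genes had an unadjusted p under 0.05. The gene was Cdh2, N-cadherin, a calcium-dependent adhesion protein between cells (chromosome 18, 16588877 to 16809246, minus strand, GRCm38). Cdh2 had 0, 0.0394 and 0 CPM in doxycycline libraries 1, 2 and 3, against 31.4, 32.5 and 29.3 CPM in spleen control libraries 1, 2 and 3. It had a single count under doxycycline and was even in the 3 controls, with no overlap. Pooled, 1 count in doxycycline libraries stood against 2695 counts in spleen control libraries, a level 2436-fold lower (95% exact interval 437 to 96241, counting error only). Its adjusted p in edgeR's quasi-likelihood test was 0.00474. The call was lost when doxycycline library 3 or any 1 spleen control library was left out, and in a model of all 16 libraries.

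Cdh2 reads were also near 0 elsewhere in the series. Bone marrow doxycycline libraries held 0 to 4 counts and bone marrow control libraries 0 to 4 counts of it. In the 4 libraries of secondary disease, which came from mice kept until fatal illness, the median was 0.163 CPM and the highest library had 39.6 CPM. Spleen control libraries and 1 secondary disease library were thus the ones with Cdh2 reads at this level.

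The next smallest adjusted p was 0.226, so every other gene below is described by its level in each library and is not called. DESeq2's Wald test on the same 6 libraries called 334 genes, 207 higher and 127 lower, while limma-voom called 1. Leaving out doxycycline library 1 gave 913 called genes, 429 higher and 484 lower under doxycycline.

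Genes were sorted by how the doxycycline libraries lay against the controls. A gene counted as shifted the same way where each doxycycline library lay beyond all 3 spleen controls and at least 1 on the log2 scale from their mean. This held for 70 genes higher under doxycycline (0.536% of genes tested) and for 116 lower (0.888%). Of the 70 higher genes 33 were even, with the 3 doxycycline libraries within 1 of each other on the log2 scale, and 37 were uneven. Of the 116 lower genes 28 were even, Cdh2 among them, and 88 uneven. A gene counted as spread where the doxycycline libraries ranged over at least 2 while the spleen controls ranged over at most 1, and 1674 genes (12.8%) did. Spread genes outnumbered the genes shifted the same way in both directions. Most genes shifted the same way were weakly expressed: 8 of the 70 higher and 20 of the 116 lower had a mean log2 CPM of at least 3. That level was asked of genes named below for their shift or range. It was not asked of other named genes, such as list members and genes picked after their values were seen. With 1 doxycycline library fewer to meet the rule, the counts were 539 higher and 692 lower without library 1, 172 and 190 without library 2, and 142 and 227 without library 3; without spleen control library 1 there were 112 higher. Spread genes numbered 653 without doxycycline library 1 and 542 without library 2.

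Among even genes at that level 4 were higher and 1 was lower under doxycycline. Promoter sequences are shown for Dusp1 and Ppp1r15a, the genes of this set that belong to the immediate early response, and for Rhag, an erythroid gene in which the doxycycline libraries spread. Each runs 5′ to 3′ on the gene's strand from 250 bases before to 50 after the start in RefSeq (GRCm38.p6), at chr17:26508423-26508722 (minus) for Dusp1, chr7:45526219-45526518 (minus) for Ppp1r15a and chr17:40810899-40811198 (plus) for Rhag. Capitals mark TGACGTCA, the cyclic AMP response element bound by CREB and ATF factors, AGATAA, a motif of GATA factors, and, read on either strand of the window, the RUNX motif TGTGGT.
Dusp1: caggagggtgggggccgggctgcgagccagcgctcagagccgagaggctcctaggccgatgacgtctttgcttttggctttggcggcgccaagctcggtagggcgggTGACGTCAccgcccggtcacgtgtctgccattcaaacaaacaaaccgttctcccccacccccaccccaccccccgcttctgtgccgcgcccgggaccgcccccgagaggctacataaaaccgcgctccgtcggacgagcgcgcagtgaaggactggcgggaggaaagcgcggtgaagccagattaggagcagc
Ppp1r15a: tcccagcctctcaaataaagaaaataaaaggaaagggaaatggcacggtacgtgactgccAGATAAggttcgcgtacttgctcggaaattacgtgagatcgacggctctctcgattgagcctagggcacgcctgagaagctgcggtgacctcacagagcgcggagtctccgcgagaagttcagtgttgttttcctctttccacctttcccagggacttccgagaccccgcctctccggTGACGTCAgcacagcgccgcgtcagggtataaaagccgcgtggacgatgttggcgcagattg
Rhag: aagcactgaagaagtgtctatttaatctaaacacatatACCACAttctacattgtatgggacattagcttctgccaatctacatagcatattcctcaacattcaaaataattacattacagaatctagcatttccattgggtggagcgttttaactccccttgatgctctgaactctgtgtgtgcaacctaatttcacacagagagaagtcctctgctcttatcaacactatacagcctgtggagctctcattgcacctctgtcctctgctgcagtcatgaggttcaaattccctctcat

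Both immediate early genes carried TGACGTCA in this window, and Ppp1r15a also carried AGATAA, while Rhag carried the RUNX motif on the opposite strand. TGACGTCA was chosen after these letters had been read. It lay in 3 of 43 promoters found for genes shifted higher the same way (6.98%) and in 1 of 76 for genes shifted lower (1.32%). It lay in 3.39% of promoters of all genes tested and in 1.88% of all 27025 promoters listed. The 3 higher genes include Dusp1 and Ppp1r15a, whose letters led to the choice, so this count cannot show an excess of TGACGTCA. The RUNX motif on either strand lay in 10 of the 43 promoters of the higher genes (23.3%) and in 14 of the 76 of the lower genes (18.4%). It lay in 12.6% over all genes tested and in 16.9% of all promoters listed. The GATA motif on either strand lay in 4 of 43 (9.3%), in 10 of 76 (13.2%), in 6.63% over all genes tested and in 11.4% of all promoters listed. A match describes letters in the window and not a bound site.

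Dusp1 encodes a phosphatase that switches off mitogen-activated protein kinases (chromosome 17, 26505590 to 26562128, minus strand, GRCm38). It had 20.2, 34.0 and 24.4 CPM in doxycycline libraries 1, 2 and 3, against 3.96, 4.96 and 4.71 CPM in spleen control libraries 1, 2 and 3. Every doxycycline library was at least 2.14 on the log2 scale above the control mean and the groups did not overlap. The log2 fold change was 2.53 ± 0.26 (SE), with an adjusted p of 0.226 in edgeR's quasi-likelihood test.

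Ppp1r15a, or GADD34, directs a phosphatase to eIF2 alpha and restores translation after stress (chromosome 7, 45522916 to 45526268, minus strand). It had 204, 239.8 and 146 CPM in doxycycline libraries and 65.6, 77.6 and 75.0 CPM in spleen control libraries. Library 3 was the lowest of the doxycycline group and still above all controls, and the log2 fold change was 1.43 ± 0.21 (SE). Its adjusted p was 0.276 in edgeR's quasi-likelihood test. With all 16 libraries scaled together, Ppp1r15a had 66.2 to 78.6 CPM in spleen controls, the lowest group. The other groups had 178 to 333 CPM (bone marrow control), 173 to 211 CPM (bone marrow doxycycline) and 85.1 to 109 CPM (secondary disease).

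Iqsec1, an exchange factor for ARF GTPases that acts in membrane traffic (chromosome 6, 90656088 to 90988685, minus strand), had 17.7, 19.9 and 25.0 CPM in doxycycline libraries and 9.76, 7.67 and 8.41 CPM in spleen control libraries. Lgmn, the lysosomal protease legumain (chromosome 12, 102394084 to 102439813, minus strand), had 10.7, 20.4 and 15.2 CPM in doxycycline libraries and 5.45, 5.00 and 5.47 CPM in spleen control libraries. Both were higher in every doxycycline library, with log2 fold changes of 1.28 ± 0.21 and 1.54 ± 0.28 (SE) and adjusted p-values of 0.276 and 0.356 in edgeR's quasi-likelihood test.

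Tmppe, named for a transmembrane protein with a metallophosphoesterase domain (chromosome 9, 114401105 to 114407276, plus strand), had 14.3, 14.1 and 13.6 CPM in doxycycline libraries and 27.9, 29.1 and 29.6 CPM in spleen control libraries. Its 3 doxycycline values lay within 0.0785 of each other on the log2 scale and all below the controls. The log2 fold change was -1.04 ± 0.14 (SE), with an adjusted p of 0.276 in edgeR's quasi-likelihood test. A shift of at least 1 left out genes as even as these.

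Gab2 and Aes lay just outside that limit, with smallest shifts of 0.998 and 0.983, and were picked after their values were seen. Gab2, a docking adaptor in cytokine receptor signalling, had 92.8, 82.9 and 101 CPM in doxycycline libraries and 200.3, 198 and 206 CPM in spleen control libraries. Aes, a Groucho-related corepressor, had 66.4, 58.8 and 59.0 CPM in doxycycline libraries and 28.4, 29.7 and 31.2 CPM in spleen control libraries. The groups did not overlap in either gene, and adjusted p-values in edgeR's quasi-likelihood test were 0.274 for Gab2 and 0.276 for Aes. Just inside the limit, the smallest shifts were 1.00 for Lgmn, 1.00 for Tmppe, 1.01 for Ppp1r15a and 1.04 for Iqsec1.

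Gfi1b, a repressor needed for erythroid and megakaryocytic maturation, was even under doxycycline, at 488, 485 and 481 CPM in doxycycline libraries and 297, 307 and 309 CPM in spleen control libraries. It lay above every control in all 3 doxycycline libraries by less than 1 on the log2 scale (0.67 ± 0.13, SE), with an adjusted p of 0.358 in edgeR's quasi-likelihood test. For Gfi1b too, spleen controls were the lowest group, at 300 to 313 CPM when scaled over all 16 libraries. Bone marrow control libraries had 409 to 531 CPM, bone marrow doxycycline 449 to 601 CPM and secondary disease 437 to 524 CPM. Kit had 102, 187 and 143 CPM in doxycycline libraries and 78.1, 61.9 and 75.8 CPM in spleen control libraries. Kit too did not overlap between groups, at a log2 fold change of 1.00 ± 0.25 (SE) and an adjusted p of 0.401 in edgeR's quasi-likelihood test.

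**Figure D2:**
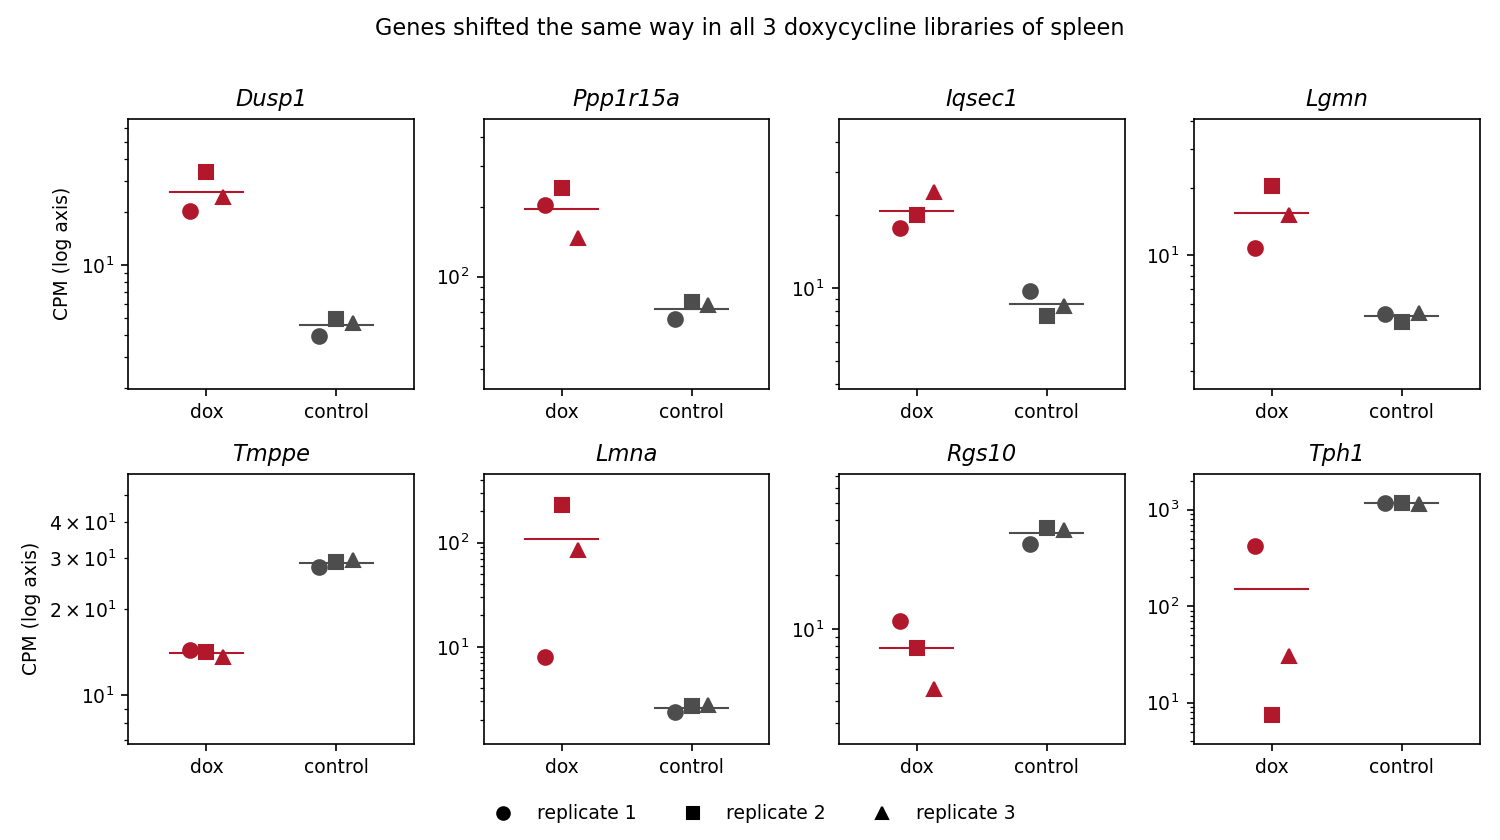
CPM on a log axis for 8 genes shifted the same way, with the 3 doxycycline libraries in red at the left and the 3 spleen control libraries in grey at the right of each panel; shapes give the replicate number and lines the arithmetic mean of a group. Dusp1, Ppp1r15a, Iqsec1, Lgmn and Tmppe sit close together under doxycycline, while Lmna, at 7.98, 229 and 85.7 CPM, and Tph1, at 416, 7.52 and 30.8 CPM, lie on 1 side of the controls at unequal distances, as Rgs10 does less widely.

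Lmna, which encodes the nuclear lamins A and C (chromosome 3, 88480147 to 88509956, minus strand), was the most uneven of the higher genes with a mean log2 CPM of at least 3. It had 7.98, 229 and 85.7 CPM in doxycycline libraries 1, 2 and 3, against 2.35, 2.71 and 2.77 CPM in spleen control libraries 1, 2 and 3. Library 1 lay a little above the controls and library 2 far above them. The log2 fold change of 5.36 ± 1.15 (SE) had an adjusted p of 0.401 in edgeR's quasi-likelihood test. Bone marrow controls were lower still for Lmna, at 0.179 to 1.36 CPM against 2.38 to 2.80 CPM in spleen controls, scaled over all 16 libraries.

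Hist1h1c, a linker histone, was instead highest in doxycycline library 1, at 56.5, 31.0 and 25.6 CPM in doxycycline libraries and 10.7, 9.62 and 9.14 CPM in spleen control libraries. Reads of a histone gene in a library enriched with oligo-dT may come from its polyadenylated transcripts, which was not tested. Tsc22d1, a leucine zipper factor induced by transforming growth factor beta, had 25.3, 95.03 and 37.1 CPM in doxycycline libraries and 9.45, 14.2 and 12.9 CPM in spleen control libraries, with library 2 highest.

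Ighm, the immunoglobulin mu heavy chain, had 21.7, 27.4 and 80.7 CPM in doxycycline libraries and 8.23, 2.33 and 5.59 CPM in spleen control libraries. Library 3 was highest, and that library also held the B cell marker Ms4a1 at 3.54 CPM, against at most 0.394 CPM in any other spleen library. The 23 B and plasma cell markers summed to 107, 73.3 and 184 CPM in doxycycline libraries and 63.0, 59.7 and 63.4 CPM in spleen control libraries, and 10 of the 23 were expressed enough to be tested. Of these 10, 3 lay above all controls in the 3 doxycycline libraries and Cd79a and Tnfrsf13c lay below them. Over all genes tested 9.44% lay above and 11.4% below. Cd79a, a signalling chain of the B cell receptor, had 4.97, 0.591 and 3.09 CPM in doxycycline libraries and 5.27, 5.30 and 5.56 CPM in spleen control libraries. Ighg1, the gamma 1 heavy chain of switched B and plasma cells, is not among the 23 markers and lay the other way from Ighm. It had 0.0950, 2.72 and 0.807 CPM in doxycycline libraries and 68.1, 14.8 and 54.7 CPM in spleen control libraries, below all controls, with a log2 fold change of -5.26 ± 1.12 (SE, adjusted p 0.401 in edgeR's quasi-likelihood test). Igha, the alpha heavy chain, lay above all controls as Ighm did. It had 3.45, 3.15 and 8.47 CPM in doxycycline libraries and 0.0871, 0 and 0.194 CPM in spleen control libraries. Switched heavy chains thus had no common direction. The part of other cells in the Ighm, Ighg1 and Igha values was not tested. In these bulk libraries fewer cells of a type and less RNA per cell cannot be told apart, here and in the groups below.

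The uneven lower genes were led by Tgtp2, an interferon-inducible GTPase (chromosome 11, 49057194 to 49064206, minus strand). It had 26.4, 18.6 and 2.06 CPM in doxycycline libraries and 122, 117 and 109 CPM in spleen control libraries. Library 3 was lowest and all 3 lay well below the controls, with a log2 fold change of -2.88 ± 0.80 (SE) and an adjusted p of 0.401 in edgeR's quasi-likelihood test. Spleen controls were the highest group for Tgtp2, at 110 to 123 CPM when scaled over all 16 libraries. Bone marrow control libraries had 14.7 to 43.7 CPM, bone marrow doxycycline 16.0 to 25.9 CPM and secondary disease 1.64 to 2.60 CPM. Tgtp2 has a near-identical neighbour, Tgtp1, so the split of reads between them is uncertain.

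Slfn2, a schlafen protein of lymphoid and myeloid quiescence, had 7.60, 0.985 and 2.78 CPM in doxycycline libraries and 25.7, 24.8 and 23.6 CPM in spleen control libraries, with library 2 lowest. Rgs10, a regulator that shortens G protein signals, had 11.02, 7.80 and 4.62 CPM in doxycycline libraries and 29.6, 36.3 and 35.5 CPM in spleen control libraries. Rgs10 ranged over 1.24 on the log2 scale under doxycycline, less than Tgtp2, Slfn2, Tph1 and Fn1, and its log2 fold change was -2.11 ± 0.33 (SE, adjusted p 0.276 in edgeR's quasi-likelihood test).

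Tph1, the peripheral enzyme that starts serotonin synthesis and a mast cell product, had 416, 7.52 and 30.8 CPM in doxycycline libraries and 1183, 1182 and 1134 CPM in spleen control libraries. It was nearly level among the controls and spanned 5.78 on the log2 scale under doxycycline, with library 2 lowest. Scaled over all 16 libraries, Tph1 had 1146 to 1198 CPM in spleen control libraries, the highest group of the series. It had 52.6 to 207 CPM in bone marrow control, 89.0 to 147 CPM in bone marrow doxycycline and 20.9 to 32.9 CPM in secondary disease libraries. Fn1, the matrix protein fibronectin, had 7.82, 11.1 and 2.29 CPM in doxycycline libraries and 29.8, 27.9 and 27.6 CPM in spleen control libraries. Here library 3 was lowest, so the odd library was not the same from gene to gene even among genes on 1 side of the controls.

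Spread genes fell into patterns by which doxycycline library stood apart. In 493 genes library 2 was low and in 87 it was high, in 144 library 1 was low and in 164 it was high, in 98 library 3 was low and in 32 it was high, and 656 were graded with no library apart. Library 2 alone departed from the controls, with the mean of libraries 1 and 3 within 1 on the log2 scale of the control mean, in 76 genes upward and 441 downward. The mean of libraries 2 and 3 departed while library 1 stayed within 1 of the control mean in 129 genes downward and 56 upward. Library 1 alone departed downward in 63 genes and upward in 7.

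The pattern with library 1 low held red cell genes. Hbb-bt, an adult beta globin, had 30.4, 5878 and 3418 CPM in doxycycline libraries 1, 2 and 3, against 36.5, 62.8 and 54.1 CPM in spleen control libraries 1, 2 and 3. Rhag, the Rh-associated membrane protein of red cells whose promoter is printed above, had 2.47, 404 and 102 CPM in doxycycline libraries and 4.05, 5.38 and 4.18 CPM in spleen control libraries. Cd24a, a surface protein of erythroid and B cell precursors, had 5.54, 1065 and 255 CPM in doxycycline libraries and 6.45, 3.98 and 4.16 CPM in spleen control libraries. In all 3 genes doxycycline library 1 was within or near the control range, while libraries 2 and 3 were high.

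Of the 18 globin and haem synthesis genes tested 16 had a log2 fold change above 0 and the median was 1.80, beside 0.0101 over all genes tested. All 3 doxycycline libraries lay above the controls in 10 of them, where 9.44% of all genes did so, and 9 were spread, as 12.8% of all genes were. Alas2, the first enzyme of red cell haem synthesis, had 55.7, 1042 and 447 CPM in doxycycline libraries and 28.5, 52.6 and 45.7 CPM in spleen control libraries. Haemoglobin genes took 0.527, 7.15 and 3.73% of counts in doxycycline libraries 1, 2 and 3, and 0.282, 0.468 and 0.412% in spleen control libraries 1, 2 and 3. Near-identical globin copies share reads, so single globin genes are less certain than this sum, and the part of other red cells in the samples was not tested.

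Of 23 red cell membrane and enzyme genes tested the median log2 fold change was 1.24, 8 lay above the controls in all 3 doxycycline libraries and 10 were spread, beside 9.44% and 12.8% of all genes. Tfrc, the transferrin receptor for iron uptake, had 104, 1239 and 558 CPM in doxycycline libraries and 241, 232 and 213 CPM in spleen control libraries, so library 1 lay below the controls and the other two above. Gata1, the main erythroid factor, had 357, 367 and 292 CPM in doxycycline libraries and 354, 367 and 360 CPM in spleen control libraries, so the groups overlapped.

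**Figure D3:**
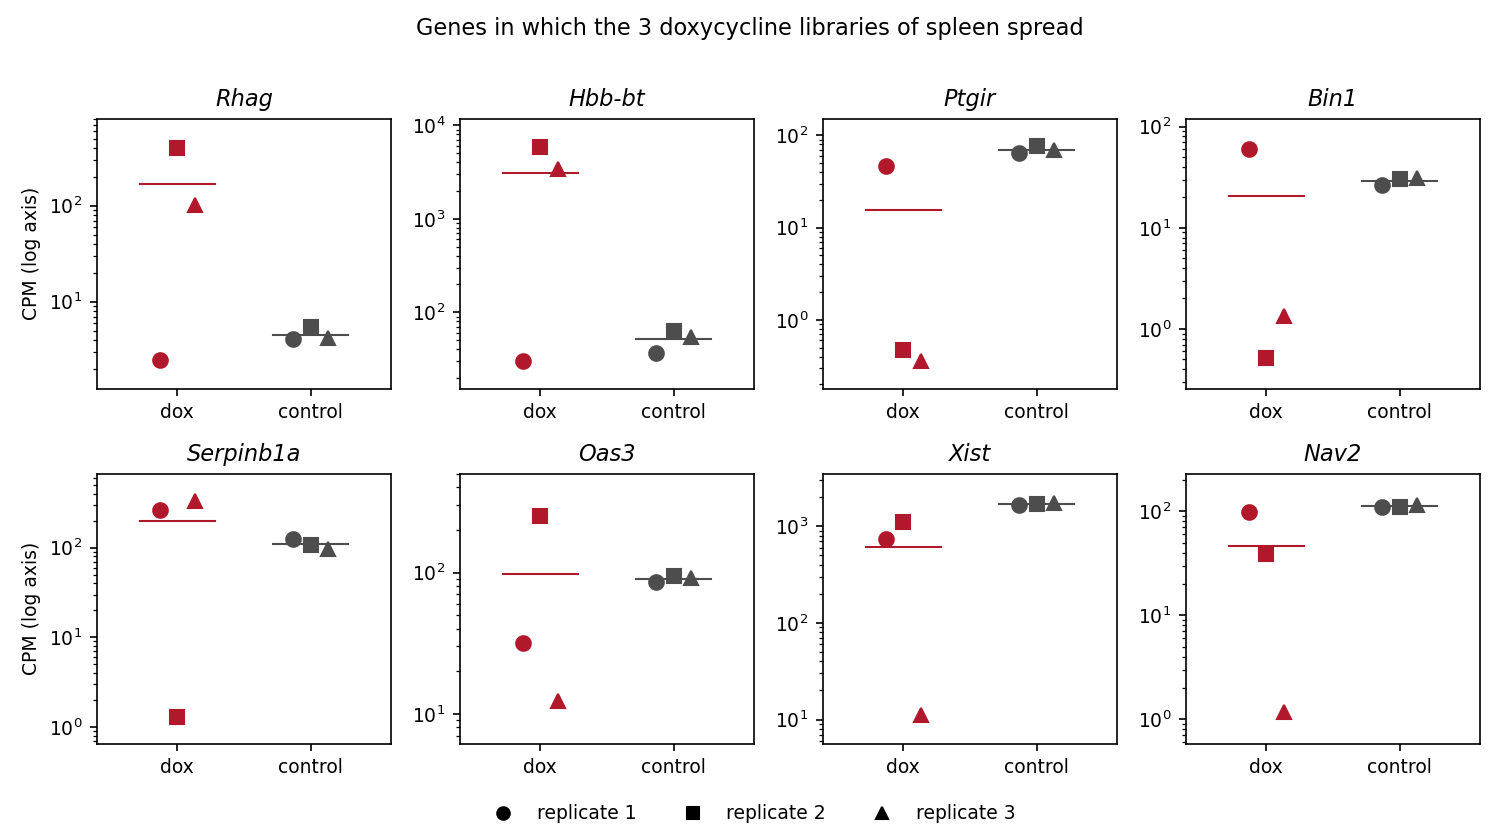
CPM on a log axis for 8 spread genes, with the 3 doxycycline libraries in red at the left and the 3 spleen control libraries in grey at the right of each panel; shapes give the replicate number and lines the arithmetic mean of a group. Library 1 stands apart in Rhag, Hbb-bt, Ptgir and Bin1, library 2 in Serpinb1a and Oas3, and library 3 in Xist and Nav2, where Xist is at 11.3 CPM in doxycycline library 3.

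In 129 of the 164 genes with library 1 high, library 1 lay within 1 on the log2 scale of the control mean and the mean of libraries 2 and 3 lay lower. Ptgir, the prostacyclin receptor, had 46.2, 0.473 and 0.359 CPM in doxycycline libraries and 63.9, 75.7 and 69.3 CPM in spleen control libraries. Bin1, a membrane-bending adaptor, had 59.96, 0.512 and 1.35 CPM in doxycycline libraries and 26.5, 30.5 and 30.8 CPM in spleen control libraries. Both were close to lost in libraries 2 and 3, whereas library 1 lay somewhat below the controls in Ptgir and above them in Bin1. Immunoproteasome genes were among this pattern: Psmb8 had 145, 15.0 and 17.2 CPM in doxycycline libraries and 86.3, 97.2 and 92.5 CPM in spleen control libraries. Of 18 genes of class I antigen presentation 17 had a log2 fold change below 0, the median was -0.47 (-1.03 without doxycycline library 1) and 6 lay below the controls in all 3 doxycycline libraries, where 11.4% of all genes did so.

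The pattern with library 2 low was the largest with a single odd library. Exosc6, a subunit of the RNA exosome, had 30.03, 0 and 10.6 CPM in doxycycline libraries and 23.8, 23.4 and 23.7 CPM in spleen control libraries. Serpinb1a, an inhibitor of neutrophil proteases, had 264, 1.30 and 335 CPM in doxycycline libraries and 126, 106 and 97.3 CPM in spleen control libraries. Esyt3, a tether between the endoplasmic reticulum and the plasma membrane, had 56.6, 0.118 and 20.8 CPM in doxycycline libraries and 46.2, 50.4 and 45.9 CPM in spleen control libraries. Library 2 was at or near 0 in each, and libraries 1 and 3 lay on either side of the controls or above them.

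Regulators and receptors of progenitors were found in this pattern. Of 28 blood transcription factors tested the median log2 fold change was 0.05 and 9 were spread, as 12.8% of all genes were. In 6 of these 9 library 2 was low, among them Runx2, Runx3, Fli1, Erg and Meis1. Over all genes tested 3.77% were spread with library 2 low. Erg, an ETS factor of stem cells, had 71.4, 1.34 and 39.9 CPM in doxycycline libraries and 54.7, 54.1 and 53.1 CPM in spleen control libraries. Meis1, a homeobox factor of leukaemic and normal stem cells, had 64.9, 4.80 and 32.7 CPM in doxycycline libraries and 37.0, 35.9 and 34.3 CPM in spleen control libraries. Runx1, the partner of CBFB, had 239, 91.4 and 99.7 CPM in doxycycline libraries and 256, 218 and 230 CPM in spleen control libraries, so libraries 2 and 3 were low and library 1 lay among the controls.

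Of 18 stem and progenitor surface genes tested 12 had a log2 fold change below 0 and the median was -0.47. Tek, the angiopoietin receptor, had 105, 1.14 and 72.6 CPM in doxycycline libraries and 102, 92.7 and 96.6 CPM in spleen control libraries. Csf2rb, the common beta chain of the interleukin-3, interleukin-5 and GM-CSF receptors, was graded, at 1371, 250.2 and 552 CPM in doxycycline libraries and 1606, 1741 and 1675 CPM in spleen control libraries. Both genes were lowest in library 2.

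Of 6 spread mast cell, basophil and eosinophil genes 5 had library 2 low, as did 3 of 7 spread platelet genes. The 22 mast cell, basophil and eosinophil genes summed to 1594, 464 and 2211 CPM in doxycycline libraries and 1456, 1472 and 1412 CPM in spleen control libraries. Of the 22, 5 had 0 counts in all 6 libraries and 12 were tested. Of these 12, 4 lay below and 1 above the controls in all 3 doxycycline libraries, where 11.4% and 9.44% of all genes did so. Shifted lower the same way were 2 of the 12, beside 0.888% of all genes. Ms4a2, the beta chain of the high-affinity IgE receptor, had 509, 98.6 and 1119 CPM in doxycycline libraries and 589, 574 and 536 CPM in spleen control libraries. Fcer1a, the alpha chain of that receptor, was shifted lower the same way. It had 6.46, 0 and 8.25 CPM in doxycycline libraries and 18.1, 22.7 and 20.6 CPM in spleen control libraries. The 18 megakaryocyte and platelet genes summed to 1329, 232 and 669 CPM in doxycycline libraries and 789, 875 and 881 CPM in spleen control libraries. Itga2b, the platelet integrin alpha IIb, had 672, 20.4 and 289 CPM in doxycycline libraries and 321, 382 and 396 CPM in spleen control libraries, and so lay above the controls in library 1 and far below them in library 2. Gp9, platelet glycoprotein IX, was instead highest in library 2, at 2.31, 3.27 and 0.897 CPM in doxycycline libraries and 0.174 to 0.364 CPM in spleen control libraries, and was shifted higher the same way.

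Library 2 was high in fewer genes. Spata13, an exchange factor for small GTPases, had 2.41, 110.5 and 7.26 CPM in doxycycline libraries and 8.41, 8.69 and 9.21 CPM in spleen control libraries. Atp2b4, a plasma membrane calcium pump of red cells and other tissues, had 72.6, 601 and 34.6 CPM in doxycycline libraries and 99.9, 101 and 109 CPM in spleen control libraries. In both, libraries 1 and 3 lay below the controls while library 2 lay above them.

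Interferon-stimulated genes joined the same-way and the spread classes. Of 43 tested 37 had a log2 fold change below 0, the median was -0.79 and 20 lay below the controls in all 3 doxycycline libraries, where 11.4% of all genes did so. Of these genes 5 were shifted lower the same way (Rsad2, Mx1, Ddx58, Ifi27l2a and Socs1) and 22 were spread, 10 of them with library 3 low and 5 with library 2 high. Over all genes tested 0.888% were shifted lower the same way and 12.8% were spread. Spread genes with library 3 low were 0.75% of all genes, and those with library 2 high were 0.666%. The median log2 CPM of the 43 was 4.77, 5.20 and 3.12 in doxycycline libraries 1, 2 and 3, and 5.63, 5.72 and 5.70 in spleen control libraries 1, 2 and 3, so library 3 was lowest.

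Rsad2, or viperin, an antiviral enzyme, had 0.190, 0.118 and 0.359 CPM in doxycycline libraries and 5.71, 4.49 and 3.33 CPM in spleen control libraries, below the level asked of the named even and uneven genes. All 3 doxycycline libraries lay below the controls, with a log2 fold change of -4.33 ± 0.51 (SE) and an adjusted p of 0.226 in edgeR's quasi-likelihood test. Ddx58, the RNA sensor RIG-I, had 50.2, 40.3 and 10.9 CPM in doxycycline libraries and 119, 114 and 111 CPM in spleen control libraries. Oas3, a sensor of double-stranded RNA that starts its decay, had 31.9, 251 and 12.3 CPM in doxycycline libraries and 85.3, 94.7 and 90.9 CPM in spleen control libraries. Ddx58 thus lay below the controls in every doxycycline library, while Oas3 lay below them in libraries 1 and 3 and above them in library 2.

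Xist, the RNA that coats the inactive X chromosome, led the pattern with library 3 low, at 735, 1099 and 11.3 CPM in doxycycline libraries and 1676, 1704 and 1751 CPM in spleen control libraries. The Y-linked genes Ddx3y, Uty, Kdm5d and Eif2s3y had at most 15 counts in any of the 6 libraries. Outside spleen treatment, Xist spanned 162 to 722 CPM in bone marrow doxycycline libraries, 803 to 1253 CPM in bone marrow control libraries and 2.62 to 121 CPM in secondary disease libraries. Xist was thus lower than in spleen controls in all 3 spleen doxycycline libraries, most in library 3, and in all other groups.

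Nav2, a protein of neurite outgrowth, and Myh10, a non-muscle myosin heavy chain, had the same odd library. Nav2 had 98.0, 39.0 and 1.17 CPM in doxycycline libraries and 109, 109.9 and 115 CPM in spleen control libraries. Armcx2 and Armcx3, X-linked genes of a mitochondrial protein family, were high in library 3, where Armcx2 had 76.9 CPM, against 10.2 and 5.20 CPM in doxycycline libraries 1 and 2 and 31.8 to 37.3 CPM in spleen control libraries. Mitochondrial transcripts took 2.28, 2.14 and 5.20% of counts in doxycycline libraries and 2.20, 2.86 and 2.24% in spleen control libraries, and their part in the pattern of library 3 was not tested.

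The graded genes were led by Ncs1, Cldn3 and Clec11a. Ncs1, a neuronal calcium sensor, had 108, 1.22 and 0.0448 CPM in doxycycline libraries and 94.8, 96.1 and 88.4 CPM in spleen control libraries. Cldn3, a tight junction protein, had 208, 9.14 and 0.179 CPM in doxycycline libraries and 32.0, 41.9 and 39.9 CPM in spleen control libraries. Clec11a, a growth factor for blood and bone progenitors, had 71.2, 0.0394 and 1.57 CPM in doxycycline libraries and 42.8, 45.2 and 48.0 CPM in spleen control libraries. In all 3 genes library 1 lay at or above the controls and the other two were far below them.

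**Figure D4:**
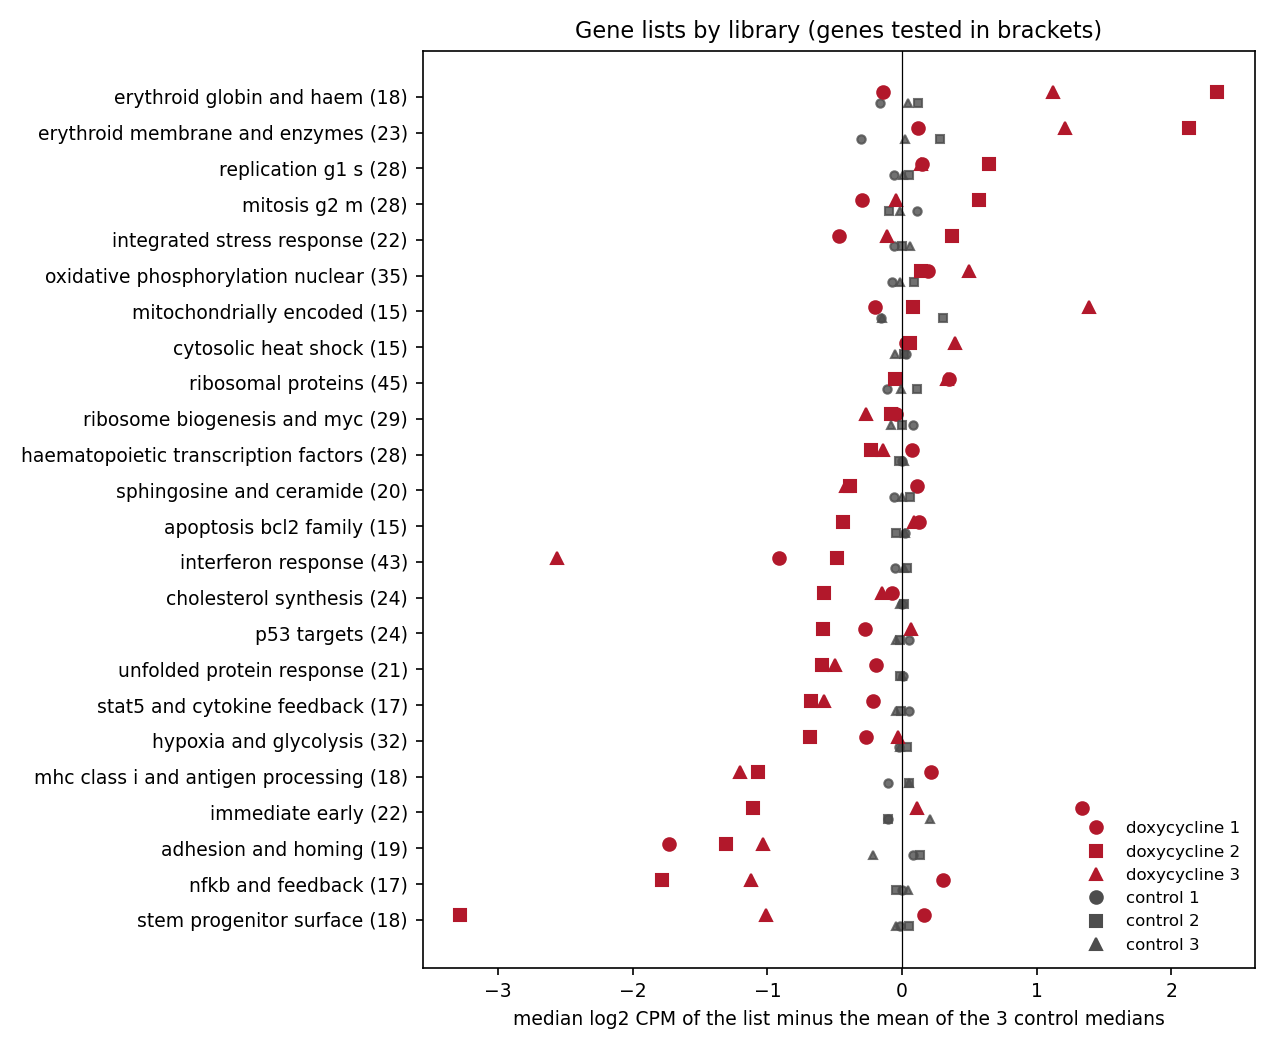
Median log2 CPM of 24 gene lists in each library minus the mean of the 3 spleen control medians, with red points for doxycycline and small grey points for spleen control libraries; shapes give the replicate number and brackets the genes tested. Erythroid lists lie at 2.34 and 2.13 in doxycycline library 2 and at -0.14 and 0.12 in library 1, and the interferon list lies at -2.56 in library 3.

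Other lists also differed by library. Immediate early genes other than Dusp1 and Ppp1r15a had no common direction: Jun, a subunit of AP-1, had 784, 104 and 430 CPM in doxycycline libraries and 321, 258 and 370 CPM in spleen control libraries. Of the 22 tested 10 were spread, 4 lay above and 2 below the controls in all 3 doxycycline libraries, and the median log2 fold change was 0.30. Over all genes 12.8% were spread, 9.44% lay above and 11.4% below, so the 2 lower genes are no more than the background. NF-kB genes had a median of -0.51 over 17 tested, with 4 below the controls in all 3 doxycycline libraries, where 11.4% of all genes lay below. One of these, Nfkbiz, an atypical inhibitor that acts in the nucleus, was even at 4.59, 3.27 and 3.72 CPM in doxycycline libraries and 10.98, 10.1 and 10.3 CPM in spleen control libraries.

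Some lists held 0 spread genes, and those of respiration, the endoplasmic reticulum, ribosomal proteins, DNA replication and cholesterol synthesis are given here. Of 35 nuclear genes of oxidative phosphorylation 32 had a log2 fold change above 0, the median was 0.26 and 14 lay above the controls in all 3 doxycycline libraries, where 9.44% of all genes did so. Of 21 unfolded protein response genes 18 had a log2 fold change below 0, the median was -0.31 and 10 lay below the controls in all 3 doxycycline libraries, where 11.4% of all genes did so. All 45 ribosomal protein genes had a log2 fold change above 0, at a median of 0.24, and 3 lay above the controls in all 3 doxycycline libraries, a smaller share than the 9.44% of all genes. The median log2 CPM of the ribosomal list stood at 0.353, -0.049 and 0.335 from the control mean in doxycycline libraries 1, 2 and 3, so library 2 was not above the controls. Of 28 genes of DNA replication and entry into S phase 27 had a log2 fold change above 0, at a median of 0.31. Of the 28, 2 lay above the controls in all 3 doxycycline libraries, where 9.44% of all genes did so. The median log2 CPM of this list stood at 0.147, 0.65 and 0.144 from the control mean in doxycycline libraries 1, 2 and 3, so library 2 was farthest. Of 24 cholesterol synthesis genes 19 had a log2 fold change below 0, at a median of -0.215. Of the 24, 5 lay below the controls in all 3 doxycycline libraries, where 11.4% of all genes did so. Their median log2 CPM stood at -0.0739, -0.58 and -0.149 from the control mean in doxycycline libraries 1, 2 and 3, again farthest in library 2.

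Bone marrow libraries of the same treatment, 3 doxycycline and 3 control, share no sample with the spleen comparison. Fitted on their own, 2276 of 12748 genes also tested in spleen were higher under doxycycline (17.9%) and 2450 lower (19.2%) at an adjusted p under 0.05 in edgeR's quasi-likelihood test. Genes with spleen library 2 low were called lower in bone marrow in 371 of 479 (77.5%) and higher in 5. Genes with library 2 high were called higher in 68 of 85 (80.0%). Genes with library 1 high were called lower in 108 of 151 (71.5%). Genes with library 1 low were called higher in 89 of 139 (64.0%), and this share differed within the pattern. Where library 1 lay within 1 of the spleen control mean and the mean of libraries 2 and 3 was higher, 53 of 56 (94.6%) were called higher. Where library 1 alone departed, downward, 12 of 59 (20.3%) were called higher and 2 lower, the first share being near the 17.9% of all genes.

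Genes in which library 3 stood apart had lower shares, at 28 of 90 called lower (31.1%) and 12 called higher for library 3 low. For calls in their own direction, even genes shifted the same way lay close to the background. Of the 32 higher ones tested in bone marrow 7 were called higher there (21.9%). Another 2 were called lower (6.25%), where 19.2% of all genes were. Of the 28 even lower genes 17 were tested in bone marrow, and 4 of these were called lower (23.5%). Another 2 were called higher (11.8%), where 17.9% of all genes were. Few even genes had a mean log2 CPM of at least 3 in spleen: 4 of 33 higher and 1 of 28 lower. With library 2 low, 240 of 493 genes did, and the part of expression level in these shares was not tested. Of 37 uneven higher genes 34 were tested in bone marrow and 18 of these were called higher (52.9%). Of 88 uneven lower genes 68 were tested there and 24 of these were called lower (35.3%). Differences in these shares between classes were not tested.

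**Figure D5:**
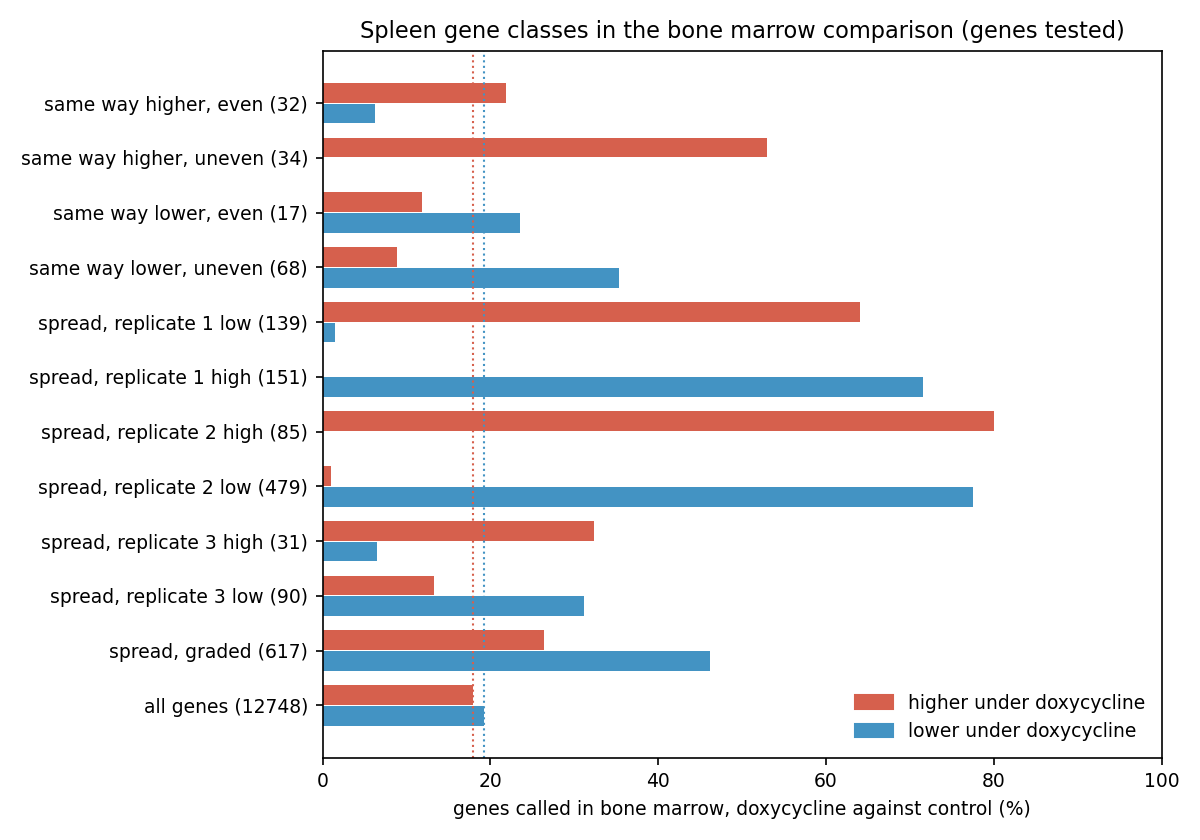
Percent of each spleen class called in the bone marrow comparison, higher in red and lower in blue, with dotted lines at the shares of all genes (17.9% and 19.2%) and the number of genes tested in brackets. Classes with spleen library 2 low or high reach 77.5% lower and 80.0% higher, while even genes shifted higher the same way reach 21.9% higher.

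A test of the difference itself, the doxycycline effect in spleen minus that in bone marrow over 12 libraries, called 23 of 14140 genes (0.163%). Dusp1 had 20.5, 34.5 and 24.7 CPM in spleen doxycycline libraries and 4.00 to 5.03 CPM in spleen control libraries, against 15.0 to 22.0 CPM in bone marrow doxycycline and 30.7 to 116 CPM in bone marrow control libraries, all on the scale of the 16 libraries. The difference of log2 fold changes was 4.42 ± 0.56 (SE), with an adjusted p of 0.0281 in edgeR's quasi-likelihood test. Dusp1 was thus higher under doxycycline in spleen and lower under doxycycline in bone marrow. Spleen controls were the lowest group for Dusp1, with 12.2 to 32.3 CPM in secondary disease libraries. Ppp1r15a differed by 1.77 between tissues, with an adjusted p of 0.0705 in edgeR's quasi-likelihood test, and Lmna by -1.82 with an adjusted p of 0.595.

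Pou4f1, a POU-domain factor of sensory neurons, had 16.6, 17.2 and 19.1 CPM in spleen doxycycline libraries and 35.9, 32.3 and 28.9 CPM in spleen control libraries. The 3 doxycycline libraries were even and below all controls by less than 1 on the log2 scale, and its effect in spleen minus that in bone marrow was -2.05 ± 0.24 (SE, adjusted p 0.0176 in edgeR's quasi-likelihood test). The count of 23 became 0 when any 1 spleen control library, or bone marrow doxycycline library 2 or 3, was left out, and 1914 without spleen doxycycline library 2.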

How the data were processed

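RNA of GFP-sorted leukaemia cells was isolated with TRIzol and made into libraries with a NEBNext Ultra II kit after oligo-dT enrichment, per the labels' protocols. Trim Galore, FastQC, MultiQC, STAR, RSEM and the build GRCm38 are named in the submitters' processing notes, without versions or roles. The sources used here do not give strandedness. Antisense partners therefore cannot be separated. The authors deposited expected counts for 55487 genes in 16 columns and a TPM file per library. Deposited TPM values entered only a check of columns, where 16 of 16 files matched best with their own column after each gene was centred (lowest r 0.737). Columns without a library numbered 0.

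Expected counts were rounded and tested with edgeR 4.0.16 (R 4.3.3; filterByExpr, TMM, robust glmQLFit, glmQLFTest) on the 6 spleen libraries, with two-sided p-values adjusted by Benjamini-Hochberg over all genes tested and a threshold of 0.05. Approximate SEs were taken from the fold change and the F statistic. Log2 CPM used a prior count of 2. Chi-square over its degrees of freedom was at least 8.06 for pairs of spleen replicates, so no library was a resequencing of another. It cannot tell whether libraries were made from the same mouse or RNA. Depth was 21838936 to 39419370 counts, and intervals cover counting error only. DESeq2 1.42.0 and limma 3.58.1 (voom, with and without quality weights), other filters, scalings, models and left-out libraries were tried. Scripts were tested on simulated data. A total of 33 gene lists were used. Members, lists and rules were chosen with earlier results of these data known. Named genes were those called; among genes with a mean log2 CPM of at least 3, leaving out predicted genes (Gm, Rik and clone names), pseudogenes, antigen receptor segments and small RNAs, up to 8 even and 5 uneven genes per direction by smallest shift and 3 per spread pattern by range; anchor genes; and up to 4 members per list by p. The odd library of a spread gene is the one whose gap to the middle library is at least 67% of the range. Other list members given as examples, Fcer1a, Igha, Ighg1, Phf11d, Gab2, Aes, Itpr1 and Maml2 were picked after their values were seen. Coordinates are from GENCODE M21 (GRCm38, 1-based), which 55394 identifiers matched. A few genes of these lists are not reported here.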

Additional observations from a re-analysis of the deposited data

Results flagged for a closer look

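The doxycycline effect in spleen differed from that in bone marrow by edgeR's quasi-likelihood test of the difference in 5 genes with printed values. Dusp1 differed by 4.421 on the log2 scale (adjusted p 0.0281), Phf11d by 2.882 (adjusted p 0.0113), Itpr1 by -1.564 (adjusted p 0.0176), Maml2 by -2.531 (adjusted p 0.0425) and Pou4f1 by -2.054 (adjusted p 0.0176), spleen minus bone marrow. Phf11d, a PHD finger gene with near-identical neighbours that can share its reads, had 16.2, 13.8 and 9.46 CPM in spleen doxycycline libraries and 2.31, 2.33 and 2.58 CPM in spleen control libraries. Itpr1, the inositol trisphosphate receptor of calcium stores, had 48.1, 36.3 and 37.8 CPM in spleen doxycycline libraries and 89.1, 84.0 and 90.2 CPM in spleen control libraries. Maml2, a coactivator of Notch, had 3.17, 2.84 and 1.84 CPM in spleen doxycycline libraries and 6.97, 6.70 and 6.80 CPM in spleen control libraries. In bone marrow, Itpr1 had 84.2 to 89.6 CPM in doxycycline libraries and 54.9 to 68.9 CPM in control libraries, and Pou4f1 had 34.2 to 45.1 CPM in doxycycline libraries and 13.4 to 20.2 CPM in control libraries. Spleen controls were the lowest group for Phf11d, at 2.33 to 2.60 CPM when scaled over all 16 libraries. Phf11d had 9.71 to 11.9 CPM in bone marrow control, 7.86 to 8.96 CPM in bone marrow doxycycline and 5.51 to 11.1 CPM in secondary disease libraries. None of the 5 effects in spleen alone was called, and leaving out any 1 spleen control library, or bone marrow doxycycline library 2 or 3, took the adjusted p of each difference above 0.05, to 0.0522 or more. Without bone marrow doxycycline library 1 the calls of Dusp1, Itpr1 and Maml2 were lost, at 0.0939 or more. Without a bone marrow control library Dusp1 was lost with library 2 left out (0.0777), Pou4f1 with library 3 (0.0523), Itpr1 with library 2 or 3 (0.0506 and 0.0523) and Maml2 with any of the 3 (0.0694 or more). With all 16 libraries in the model the adjusted p was 0.0957 for Itpr1 and 0.302 for Maml2.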

How the results depend on the processing

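The count of 1 called gene was the same with DESeq2 size factors, a mean count of at least 50, no robust estimation or limma-voom. It was 6 with no filter, 35 with voom quality weights, 107 with all 16 libraries in the model, 140 with 12 libraries and 334 with DESeq2, and 0 to 913 with a library left out. Genes shifted the same way numbered 70 higher and 116 lower, against 140 and 198 with no filter, 28 and 65 at a mean count of at least 50, 213 and 291 at a shift of 1.5-fold, 8 and 24 at a shift of 2, and 104 to 539 and 122 to 692 with a library left out. Spread genes numbered 1674, against 763 at a range of at least 3 and 542 to 2110 with a library left out. The bone marrow count of 4929 was 1544 in the model of 12 libraries, and 3703 to 5149 with a library left out. The interaction count of 23 was 7 with 16 libraries and 0 to 1914 with a library left out. Leaving out libraries of bone marrow and in the interaction was added after seeing the data. With replicate number as a block, 1 gene was called in spleen, 3804 in bone marrow and 3 for the interaction. There Dusp1 and Maml2 were lost (adjusted p 0.106 each in edgeR's quasi-likelihood test). Deviations from the group mean correlated at -0.135, -0.048 and -0.0491 between same-numbered spleen libraries, and at -0.107 to 0.153 between differently numbered ones. Because the spleen controls varied little, these correlations cannot show whether the numbers pair the samples. The causes of these changes were not tested. No called value changed direction.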
